A study of Mus musculus with 3 samples.

Results

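Receptors by which macrophages and sinusoidal cells of the spleen take up particles, dying cells and modified proteins were followed in spleens that carried an islet graft. The members were chosen by name as every array probe that is not a control and whose gene name is Marco, Msr1, Cd209b, Siglec1, Timd4, Cd5l, Mrc1, Stab1, Stab2 or Axl, which gave 14 of 55679 probes for 10 of 34797 gene names. Marco, Cd209b and Siglec1 mark the marginal zone and were set beside the other 7. The choice was made with these arrays' own values known, so the signals and ratios below are a description of 3 arrays and carry no test.

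The spleens came from C57BL/6J mice, the recipients were adult males made diabetic with streptozotocin by the study's methods, and every recipient was given 25 islets in the spleen and 100 islets beneath the kidney capsule. Day 0 (Sample 1) is spleen taken right after grafting, day 2 (Sample 2) is spleen taken 2 days later, and day 139 (Sample 3) is spleen taken 139 days after grafting from mice whose graft-bearing kidney had been removed on day 100. The labels list the capsular graft among the sample traits for day 139 alone, while their protocol text gives it for all 3. Each day has 1 array. The labels give no age, and the study's methods give only an age range in weeks for the mice as a whole. Neither gives the number of mice behind an array, so a difference between days cannot be told apart from a difference between mice. Time since streptozotocin, removal of a kidney and any difference in age also separate day 139 from the earlier days. These cannot be told apart from time since grafting. No spleen without a graft and no non-diabetic spleen is among these arrays.

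The marginal zone is the border between the red pulp, which filters blood, and the white pulp, which holds the lymphocytes. Blood empties there past macrophages that carry pattern-binding receptors, and these cells capture bacteria, viruses and dying cells from the circulation. Scavenger receptors are a loose class joined by what they bind, namely modified lipoproteins, polyanions and microbial surfaces, and in the spleen they sit on macrophages and on the endothelium that lines the sinuses.

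On the whole spleen array, 9 of the 10 genes were well above background on all 3 arrays, which is the scanner software's own call that a spot exceeds its surroundings, and Cd209b was so on day 0 alone. Of the 14 probes, 12 were well above background on every array, 13 on at least 1 and 1 on none. Each probe was a single spot and no spot was saturated or marked as an outlier. Values below are quantile-normalized signals, and a gene with several probes is given by its brightest detected one. The error after a log2 ratio is the scanner software's spot error carried through, about 0.20 for bright probes, and it covers neither labeling nor differences between mice. A member counts as changed at a ratio of at least 1.5 or at most 0.66, the limits of the study's methods.

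Between day 0 and day 139, Msr1, Marco, Stab1 and Mrc1 fell and Timd4 rose. Msr1 showed the largest of these differences, at 5.66-fold lower, and Timd4 was 2.34-fold higher. The falls of Stab1 and Mrc1 were called under 9 of 10 processing settings. Siglec1, Cd5l, Stab2 and Axl stayed inside the limits over those days, and Cd209b was not well above background on day 139. Between day 0 and day 2, Siglec1 and Cd5l rose and Mrc1 fell. Cd209b was past the lower limit there as well, but its day 2 signal was not well above background. With another background correction it came inside the limits. Members past the upper and members past the lower limit were thus found in both comparisons.

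**Figure D1:**
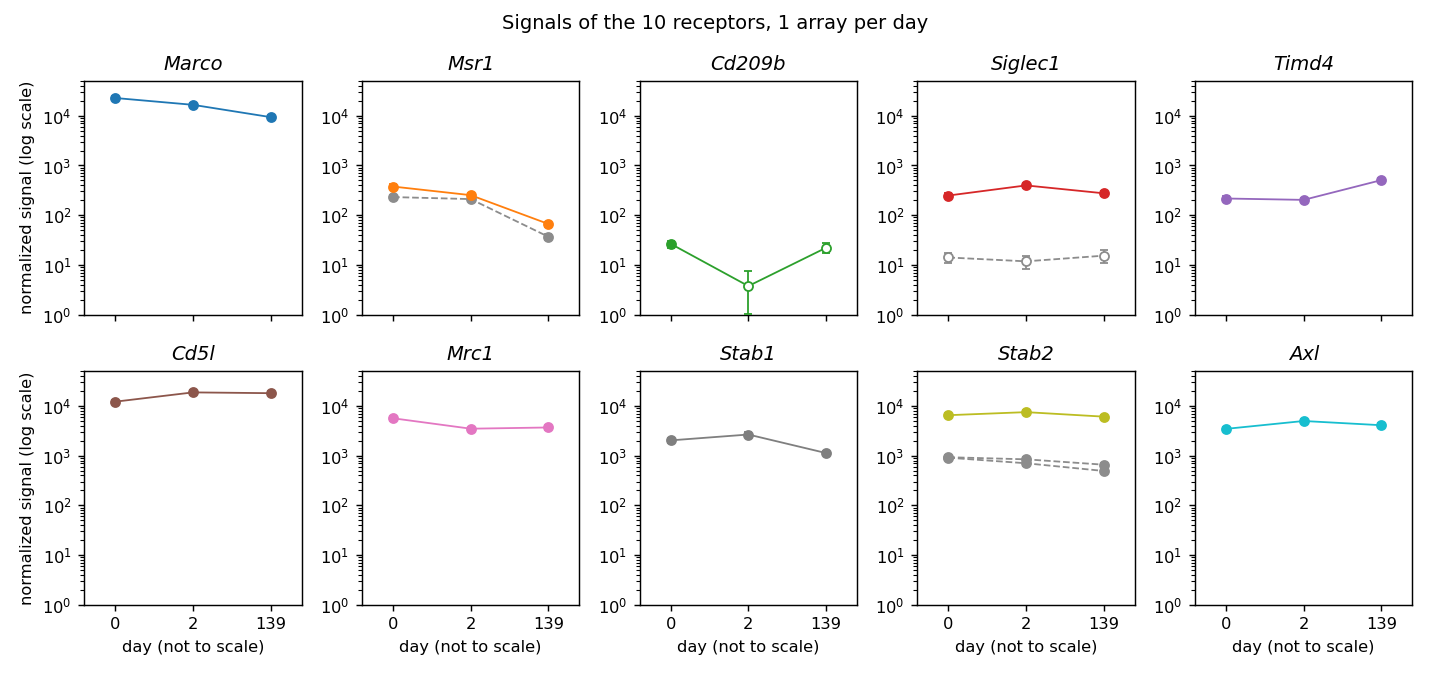
Normalized signal (log axis) of each of the 10 receptors on days 0, 2 and 139, 1 array per day, with days spaced evenly and not to scale. Colored lines are the brightest probe and dashed gray lines the other probes of a gene, error bars are the scanner software's spot error, and open circles are not well above background; Msr1 shows the steepest drop to day 139 on both of its probes, and Timd4 is the member that is highest on day 139 by more than 1.5-fold over both earlier days.

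Marco, a class A scavenger receptor with a collagen-like stalk, is a receptor by which marginal zone macrophages bind bacteria. Its probe (NM_010766) had signals of 22779 on day 0, 16599 on day 2 and 9380 on day 139. The signal was lower on each later day, and the log2 ratio was -0.46 ± 0.20 for day 2 over day 0, -1.28 ± 0.20 for day 139 over day 0 and -0.82 ± 0.20 for day 139 over day 2. Day 139 was thus at 0.412 of day 0, past the limit, while day 2 at 0.729 of day 0 was not. The array annotation places this probe at chr1:122371115-122371134 on the minus strand of mm9, which covers only 20 of its 60 bases. Marco stayed past the limit for day 139 over day 0 under all 10 processing settings, between -1.36 and -0.92, and for day 139 over day 2 under 9 of 10. The exception was scaling to the spike-in controls, RNAs of known amount added to each sample before labeling, which gave -0.51. For a bright gene with 1 probe, here and below, most settings return the quantile-normalized value or nearly so. Only 75th percentile scaling, spike-in scaling and another background correction (normexp) could move it much.

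Cd209b, known as SIGN-R1, is a C-type lectin of marginal zone macrophages that binds the sugars of bacterial capsules. It is shown with its probe because the signal of that single probe sat at the edge of what the array detects. Whether this reflects the level of the gene or the probe was not tested. The probe (NM_001037800, chr8:3921355-3921414, minus strand, mm9) reads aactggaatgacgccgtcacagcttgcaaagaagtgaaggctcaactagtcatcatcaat in 5′ to 3′ direction. Its signals were 26.5 ± 4.30 on day 0, 3.74 ± 3.76 on day 2 and 22.1 ± 5.09 on day 139. Only day 0 was well above background, so the 2 later days give bounds. Each bound was taken against the higher of its own signal and the dimmest signal well above background on that array. On the quantile-normalized scale, and leaving out spot error, Cd209b was at least 1.89-fold higher on day 0 than on day 2. For day 139 its own signal was the higher of these, so 1.20-fold is only the measured ratio and no difference is read from it. No ratio is given for day 139 over day 2. The measured log2 ratio of day 2 over day 0 was -2.82 ± 1.47, an error far wider than that of any other member. With another background correction (normexp) it became -0.45, inside the limits. At this signal the day 139 value was within its error of day 0, and it is -0.27 with quantile normalization but 0.03 with spike-in scaling.

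Siglec1, or sialoadhesin (CD169), binds sialic acid and marks the metallophilic macrophages on the inner rim of the marginal zone. The brighter probe (NM_011426, chr2:130895093-130895152, minus strand) had signals of 248 on day 0, 397 on day 2 and 275 on day 139. Day 2 stood above both other days, at 1.60 times day 0 (log2 0.68 ± 0.21). Day 139 was close to day 0, with a log2 ratio of 0.15 ± 0.21, and below day 2 by -0.53 ± 0.21, which does not reach the limit. The rise on day 2 held under 9 of 10 settings and came to 0.58 under normexp, just short of the limit. Another Siglec1 probe (chr2:130909693-130909752, minus strand) is shown because it could not serve as a second reading. Its sequence is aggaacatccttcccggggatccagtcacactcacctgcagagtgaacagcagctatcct, and its signals of 14.1, 11.8 and 15.3 on days 0, 2 and 139 were not well above background on any array.

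Of the marginal zone genes, Marco was lowest on day 139 and Siglec1 highest on day 2, while Cd209b could be read on day 0 alone. Their median log2 ratio was -0.46 for day 2 over day 0, which is the Marco value. For day 139 it rests on Marco and Siglec1 alone, at -0.56 over day 0 and -0.67 over day 2, the latter -0.31 with spike-in scaling. Over day 0 Marco and Siglec1 went opposite ways, and with spike-in scaling they are at -0.92 and 0.52. The other 7 members had medians of 0.20, -0.10 and -0.28 in the same order, of which the last 2 change sign with spike-in scaling, to 0.26 and 0.07. In whole spleen, fewer cells of a type and less RNA per cell cannot be told apart, and this holds for every gene here.

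Msr1, the class A scavenger receptor that takes up modified low-density lipoprotein, is made by macrophages widely and is not restricted to the marginal zone. It was read by 2 probes (NM_031195) in different places of the gene. The brighter one (chr8:40689158-40689217, minus strand) had signals of 377 on day 0, 253 on day 2 and 66.5 on day 139. The other (chr8:40709296-40709355, minus strand) had 231, 211 and 36.8 on the same days. On both probes day 139 was the lowest by far and day 0 the highest. Because this is the largest difference among the members read above background on both days, the sequence of the second probe is given: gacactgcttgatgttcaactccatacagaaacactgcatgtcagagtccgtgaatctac. Day 139 over day 0 had log2 ratios of -2.50 ± 0.22 and -2.65 ± 0.27 on the 2 probes, and day 139 over day 2 had -1.93 ± 0.22 and -2.52 ± 0.27. The days 0 and 2 differed by -0.58 ± 0.20 on the brighter probe, a ratio of 0.671 that does not reach the limit of 0.66 but does with spike-in scaling (-0.62), and by -0.14 ± 0.21 on the other. Over the 10 settings, 1 of which takes the median of both probes, Msr1 gave between -2.58 and -1.88 for day 139 over day 0.

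Mrc1, the macrophage mannose receptor (CD206), binds mannose-bearing glycoproteins and is also made by some sinusoidal endothelium. Its signals (NM_008625, chr2:14253273-14253332, plus strand) were 5668 on day 0, 3495 on day 2 and 3699 on day 139. Both later days stood below day 0 and differed from each other by 0.08 ± 0.20 on the log2 scale, within the spot error. Day 2 was at 0.617 of day 0 (log2 -0.70 ± 0.20) and day 139 at 0.653 (log2 -0.62 ± 0.20). The second of these is close to the limit, and with spike-in scaling it becomes -0.25 and is no longer called, while the day 2 value was past the limit under all 10 settings.

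Stab1 and Stab2 encode the stabilins, large receptors of sinusoidal endothelium that clear hyaluronan and modified proteins, and Stab1 is also found on macrophages. Stab1 (NM_138672, chr14:31952288-31952347, minus strand) had signals of 2034 on day 0, 2668 on day 2 and 1131 on day 139. Day 139 was the lowest, at 0.556 of day 0 (log2 -0.85 ± 0.20) and 0.424 of day 2 (log2 -1.24 ± 0.20), and day 2 over day 0 was 0.39 ± 0.20, inside the limits. With spike-in scaling the day 139 over day 0 value becomes -0.47, inside the limits, whereas day 139 over day 2 was past the limit under all 10 settings. Stab2 was inside the limits on its brightest probe (NM_138673, chr10:86303982-86304041, minus strand), with signals of 6533, 7530 and 6109 on days 0, 2 and 139. Its log2 ratio of day 139 over day 0 was -0.10 ± 0.20 and is 0.26 with spike-in scaling.

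The other 2 Stab2 probes are matched by the array annotation to other transcripts of the gene and did not follow the brightest one closely. The probe at chr10:86455257-86455316 had signals of 932, 846 and 659 on days 0, 2 and 139, a log2 ratio of -0.50 ± 0.20 for day 139 over day 0. The probe at chr10:86381487-86381546 had 912, 705 and 493, a log2 ratio of -0.89 ± 0.20 over the same days, which is past the limit. All 3 Stab2 probes had their lowest signal on day 139, and they differed in how far it lay from day 0. Whether Stab2 counts as changed by day 139 thus depends on the probe read.

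Timd4 (Tim-4) binds phosphatidylserine on dying cells and is a mark of long-lived resident macrophages. Its signals (NM_178759, chr11:46657173-46657232, plus strand) were 216 on day 0, 203 on day 2 and 507 on day 139. Days 0 and 2 differed by less than the spot error (log2 -0.09 ± 0.21). Day 139 stood above both, at 2.34 times day 0 (log2 1.23 ± 0.21) and 2.50 times day 2 (log2 1.32 ± 0.21). Timd4 was past the limit in both comparisons under all 10 settings, between 1.09 and 1.59 over day 0, and no other member was higher on day 139 than on both earlier days by more than the limit.

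Cd5l, also called AIM, is a secreted scavenger receptor cysteine-rich protein of tissue macrophages that dampens their death. Its signals (NM_009690, chr3:87174823-87174882, plus strand) were 12227 on day 0, 18795 on day 2 and 18121 on day 139. Both later days were above day 0, with log2 ratios of 0.62 ± 0.20 and 0.57 ± 0.20. The first is a ratio of 1.54 and passed under all 10 settings, the second is 1.48, just under the limit, and passed under 2 of the 10, at 0.64 with normexp and 0.95 with spike-in scaling. Days 2 and 139 differed by -0.05 ± 0.20, or by 0.29 with spike-in scaling.

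Axl, a receptor tyrosine kinase that binds dying cells through the bridging protein Gas6, had signals of 3466, 4995 and 4105 on days 0, 2 and 139 (NM_009465, chr7:26542541-26542600, minus strand). Day 2 was the highest, and its log2 ratio of 0.53 ± 0.20 over day 0, a ratio of 1.44, stayed inside the limits. Day 139 over day 0 was 0.24 ± 0.20, and day 139 over day 2 was -0.28 ± 0.20, or 0.07 with spike-in scaling.

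**Figure D2:**
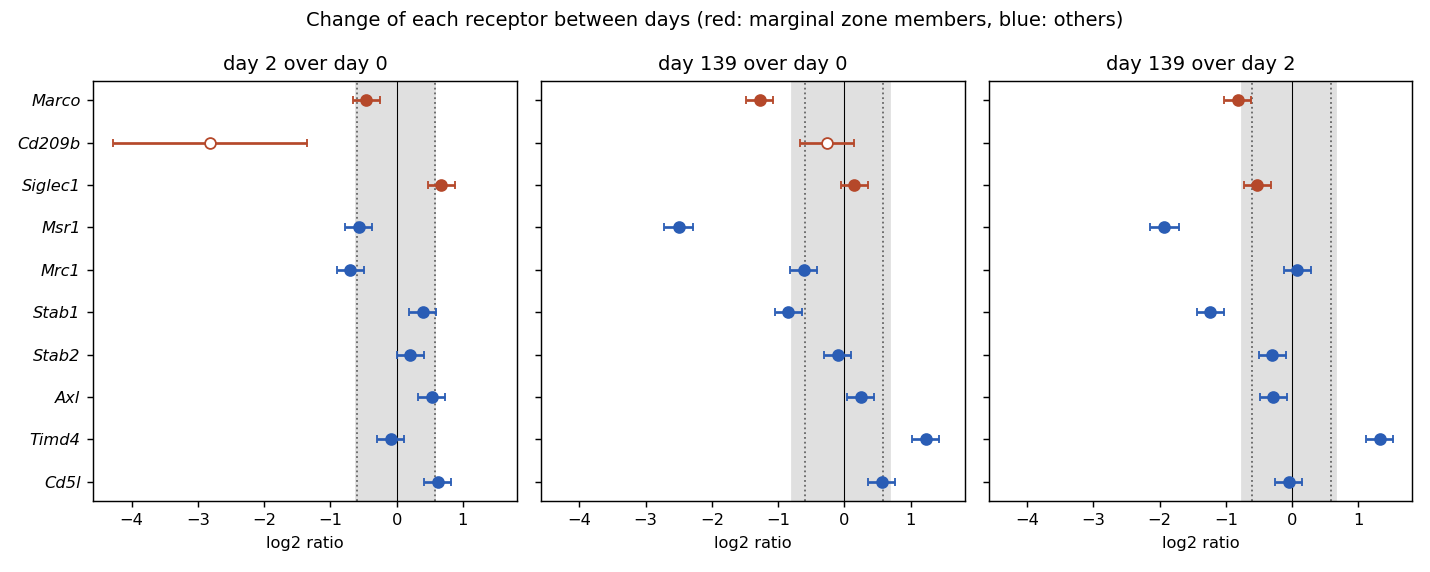
Log2 ratio of each receptor in the 3 comparisons, red for the marginal zone members and blue for the others, with the scanner software's spot error as bars. Dotted lines are the ratio limits of 1.5 and 0.66, the gray band holds the ratios of all detected probes between their 10th and 90th percentiles, and an open circle is a value with 1 array not well above background; Msr1, Marco and Stab1 lie left of the band and Timd4 right of it for day 139 over day 0.

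Counted together, the ratio limits were passed upward by 2 of 10 members on day 2 over day 0 (Siglec1 and Cd5l) and downward by 2 (Cd209b and Mrc1). Over all 31570 detected probes with a ratio, 9.97% passed upward and 10.3% downward. For day 139 over day 0, 1 member passed upward (Timd4) and 4 downward (Marco, Msr1, Mrc1 and Stab1), beside 12.4% and 14.5% of 31162 probes. For day 139 over day 2, 1 of the 9 members with a ratio passed upward (Timd4) and 3 downward (Marco, Msr1 and Stab1), beside 11.9% and 14.1% of 30850 probes. The median log2 ratio of the members was 0.06, -0.18 and -0.30 in these comparisons, against 0.01, -0.03 and -0.04 over all probes, with Cd209b entered at its measured value in the first 2. Each array serves in 2 of the 3 comparisons, so the comparisons are not independent of one another, and nothing is read from these shares since the members were chosen on these values.

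The study's methods required a Z-score of 2 or more, or -2 or less, beside the ratio. Their formula is not given there, and it was taken here as a probe's log2 ratio in units of the SD found among the 1000 probes of most similar signal. With it, Cd209b (-2.40) alone remained on day 2 over day 0, where 1.94% of probes passed upward and 2.59% downward. That score takes the day 2 signal of Cd209b at its measured value below background, and at the bound of 1.89-fold it is -0.779, which leaves 0 members past both criteria. On day 139 over day 0 Msr1 (-3.71) and Marco (-2.22) remained, beside 2.59% upward and 2.28% downward. On day 139 over day 2 Msr1 (-2.83), Stab1 (-2.25) and Timd4 (2.02) remained, beside 2.48% upward and 1.84% downward. Timd4 over day 0, at 1.83, and Stab1 over day 0, at -1.53, fell short of it.

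The choice of scaling bears on every day 139 value. Of the spike-in controls, the 7 whose every spot was well above background had a geometric mean signal before normalization on day 139 of 67.0% of that on day 0, and on day 2 of 103%. Scaling to them moves the median log2 ratio of all probes to 0.33 for day 139 over day 0 and 0.35 for day 139 over day 2, and leaves day 2 over day 0 at -0.02. The share of probes past the limits for day 139 over day 0 then changes from 12.4% upward and 14.5% downward to 28% and 7.7%, and for day 139 over day 2 from 11.9% and 14.1% to 30.5% and 6.21%. On that scale Timd4, Cd5l and Axl passed upward and Marco and Msr1 downward for day 139 over day 0, so Marco, Msr1 and Timd4 were the members called the same way on either scale.

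**Figure D3:**
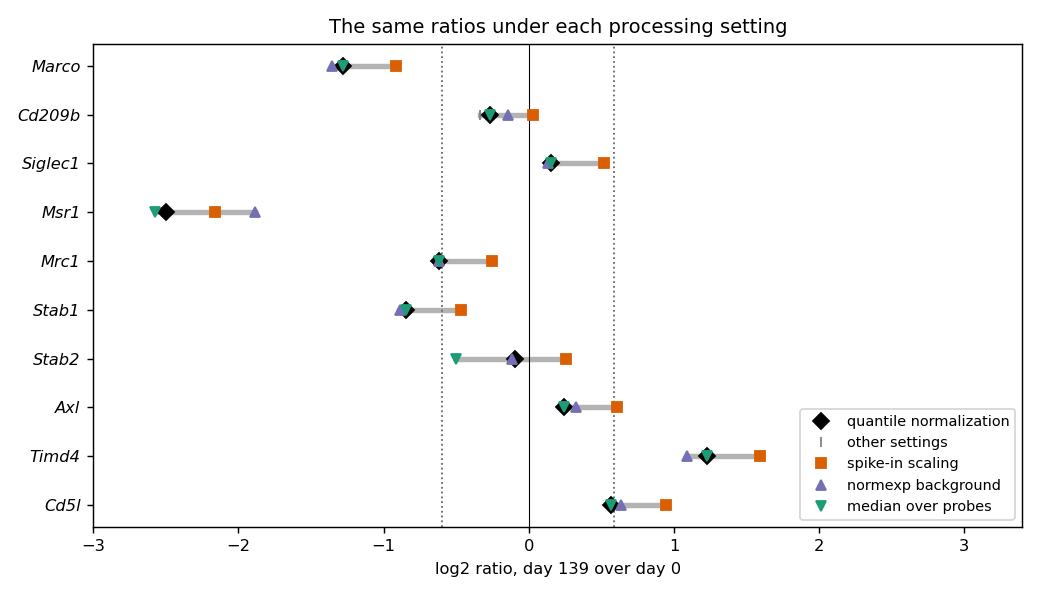
Log2 ratio of day 139 over day 0 of each receptor under each processing setting, with the quantile-normalized value as a black diamond and the gray bar running from the lowest to the highest value. Dotted lines are the ratio limits; Msr1 and Marco stay left of the lower limit and Timd4 right of the upper one at every setting, Cd209b is measured against a day 139 spot not well above background, and Mrc1 and Stab1 come inside the limits with spike-in scaling.

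Genes of related function were taken from lists written from general knowledge, and their counts are on the quantile-normalized scale. Over all detected probes, 9.97% passed upward and 10.3% downward for day 2 over day 0. The shares were 12.4% and 14.5% for day 139 over day 0, and 11.9% and 14.1% for day 139 over day 2. They stand beside every list count here and below, and nothing about a list is read from a count near them. Among other scavenger receptors, 15 of 17 were detected, and for day 139 over day 0, 2 of them rose and 4 fell, with a median log2 ratio of -0.25 that becomes 0.10 with spike-in scaling. The largest was Scara5, a ferritin receptor, at 0.93 and the smallest with both arrays well above background was Cd163, the haptoglobin-hemoglobin receptor, at -0.83, with signals of 89.6, 67.2 and 50.3 on days 0, 2 and 139. Lrp1, a large endocytic receptor, had 3732, 3631 and 2117 and was past the limit on day 139 against both earlier days. The other 2 that fell, Olr1 and Ssc5d, were not well above background on day 139 and were at least 3.27-fold and 2.56-fold higher on day 0, and at least 2.32-fold and 1.78-fold higher on day 2. For day 2 over day 0, 1 of the 15 rose (Scara3, log2 0.79) and 0 fell, with Clec7a, the beta-glucan receptor, the smallest at -0.59. From day 2 to day 139, 1 rose (Clec7a, log2 0.67) and 4 fell, of which Lrp1, at -0.78, was the smallest with both arrays well above background.

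Genes of apoptotic cell uptake, the process in which Timd4 and Axl take part, numbered 18, all detected. From day 0 to day 139, 2 rose and 4 fell, with a median of 0.04 that becomes 0.39 with spike-in scaling, and for day 2 over day 0, 4 of 17 rose and 1 fell, with a median of 0.08. Gas6, the bridging protein for Axl, had signals of 3263 on day 0, 6385 on day 2 and 8387 on day 139. Both later days were past the limit over day 0, with log2 ratios of 0.97 and 1.36, beside the Axl values of 0.53 and 0.24. The related receptor Tyro3 stood at 106.8, 404 and 141, high on day 2 alone. Tgm2, a transglutaminase that aids engulfment, had 17162, 9642 and 6576, with a log2 ratio of -0.83 for day 2 and -1.38 for day 139 over day 0. Cd300lf, a phosphatidylserine receptor, and Itgb3, a subunit of an integrin that binds coated dying cells, fell on day 139 against both earlier days, with -1.08 and -0.66 over day 0. Havcr1 (Tim-1), a relative of Timd4, was well above background on day 139 alone, where it was at least 4.47-fold higher than on day 0 and 4.12-fold higher than on day 2. Gas6 (0.39) and Tyro3 (-1.52) were the extremes of day 139 over day 2 among genes above background on both days.

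The C-type lectins related to Cd209b and Mrc1 numbered 13 detected of 15. For day 2 over day 0, 2 rose and 6 fell (median -0.21), and for day 139 over day 0, 3 rose and 6 fell (median -0.50, or -0.12 with spike-in scaling). Clec4d and Clec4e, receptors for mycobacterial glycolipid on monocytes and neutrophils, had signals of 3816, 1579 and 375 and of 1107, 374 and 180, and Clec4d had the smallest ratio of the list, -3.35 on log2. Clec4a2 fell on day 139 against both earlier days as well, at -1.12 over day 0. Within the Cd209 cluster the members differed. Cd209a, the dendritic cell member, stood at 422, 262 and 394 on days 0, 2 and 139, and Cd209d at 271, 234 and 395. Cd209e was at 83.2, 26.1 and 30.1, and Cd209c, at 67.0, 16.3 and 18.1, was not well above background on day 139, where it was at least 3.68-fold below day 0, and had a log2 ratio of -2.04 for day 2 over day 0, the smallest of the list there. Cd209f went the other way, with signals of 21.2 and 61.8 on days 2 and 139 after one not well above background on day 0, at least 1.64-fold and 4.78-fold lower. Among genes above background on both days, Mrc2 (0.91) had the largest ratio of the list on day 2 over day 0, Mgl2 (0.66) on day 139 over day 0, and Cd209f (1.54) and Clec4d (-2.08) were the extremes of day 139 over day 2. These paralogs share stretches of sequence, and cross-hybridization between them was not tested.

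All 7 other Siglec genes were detected. By day 139, 2 rose over day 0 and 1 fell, and the 2 that rose, Siglecg (log2 1.07) and Cd22 (log2 1.05), are receptors of B cells. Cd33, a myeloid Siglec, had signals of 348 on day 0, 106 on day 2 and 103 on day 139, and was the smallest of the list in both comparisons with day 0, and Siglecf was the largest on day 2 over day 0 (0.13) and the smallest on day 139 over day 2 (-0.53), where Cd22 (1.34) was the largest and Siglecg rose as well (1.02). None of the 7 rose on day 2 over day 0, the comparison in which Siglec1 passed upward.

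Among 13 factors that maintain splenic macrophages, 0 rose and 5 fell on day 2 over day 0, with a median of -0.16, and 3 rose and 4 fell on day 139 over day 0, with a median of -0.33 that becomes 0.02 with spike-in scaling. Nr1h3 encodes LXR alpha, on which marginal zone macrophages depend, and its signals were 8167, 5247 and 6392 on days 0, 2 and 139. Spic, the transcription factor of red pulp macrophages, had 13170, 4011 and 9906, with a log2 ratio of -1.72 for day 2 over day 0, the smallest of this list, while Il34 was the largest there (0.55). On day 139 over day 2 Spic was the largest, at a ratio of 2.47. Csf1, the macrophage growth factor, had 3945, 2243 and 1396 and fell on day 139 against both earlier days, to 0.354 of day 0. Ltb, Lta and Irf8 rose on day 139 against both, with 0.93, 0.85 and 0.63 over day 0, and Ltb and Lta are made by B cells too.

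**Figure D4:**
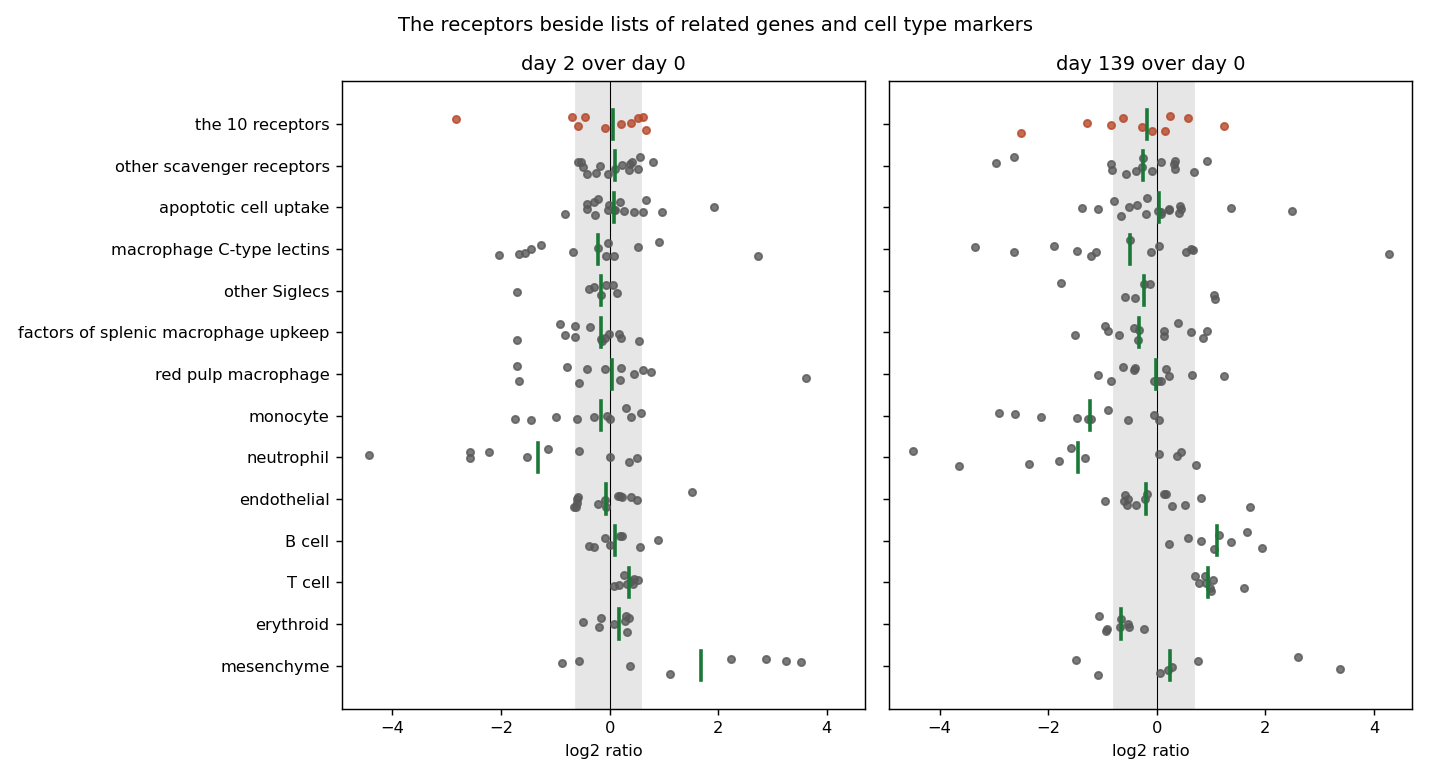
Log2 ratio of each gene of the lists (gray points) and of the 10 receptors (red points), for day 2 over day 0 and day 139 over day 0, with the list median as a green bar and the 10th to 90th percentile of all detected probes as a gray band. Every T cell marker and 6 of 8 B cell markers lie right of the band on day 139, the monocyte and neutrophil medians lie left of it there, and the receptors spread over both sides.

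Markers of the cell types that a spleen holds also moved between the days. Beside their counts, 9.97% of all detected probes passed upward and 10.3% downward on day 2 over day 0. On day 139 over day 0 the shares were 12.4% and 14.5%. Of 10 detected monocyte markers, 0 rose and 7 fell on day 139 over day 0 (median -1.24, or -0.89 with spike-in scaling), and their summed signal was 98509 on day 0, 80671 on day 2 and 35542 on day 139. Ccr2, Cd14, Chil3, F10, Fn1, Thbs1 and Vcan fell on day 139 against both earlier days, from -0.89 for Ccr2 to -2.90 for Chil3 over day 0 and with Fn1 the smallest over day 2 (-1.87), while Itgam stayed at 0.03 over both and Lyz2 was the largest on day 2 over day 0 (0.57). This stands beside the falls of Msr1, Marco and Stab1 over the same days. Of 10 neutrophil markers, 6 fell on day 2 and 6 on day 139 over day 0, with summed signals of 227108, 76345 and 88178 that are mostly S100a8 and S100a9. The list was split: Mmp8 was at -4.44 on day 2 and -4.49 on day 139, and Retnlg fell further from day 2 to day 139 (-1.07), while Camp rose on day 139 (0.72), was the largest on day 2 (0.50), and Ltf, Ngp and Ly6g were at 0.45, 0.38 and 0.04 on day 139 over day 0. Ly6g was the largest on day 139 over day 2 (0.60). Day 0 had the highest sum for both of these myeloid lists, and Cd33, Clec4d and Clec4e were also highest on that day.

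Of 8 B cell markers, 6 rose and 0 fell on day 139 over day 0 (from 0.23 for Cr2 to 1.94 for Blk), and all 8 T cell markers rose (median 0.95), while 5 of 8 erythroid markers fell (median -0.66, or -0.29 with spike-in scaling). Against both earlier days, Cd79a, Cd79b, Ms4a1, Cd22, Blk and Fcer2a of the B cell list and Cd3g, Cd5 and Cd247 of the T cell list rose, and Gata1, Klf1, Epor and Ermap of the erythroid list fell. The extremes of day 2 over day 0 were Fcer2a (0.90) and Ms4a1 (-0.38) among B cell markers, Lck (0.52) and Cd247 (0.08) among T cell markers, and Alas2 (0.36) and Tfrc (-0.49) among erythroid markers. On day 139 the smallest T cell ratio was that of Cd3e (0.71 over day 0) and the erythroid ratio nearest to 0 was that of Alas2 (-0.23 over day 0). Summed signals on days 0, 2 and 139 were 47164, 46770 and 87986 for B cell markers and 13852, 18585 and 25984 for T cell markers. Of 8 mesenchyme markers, 5 rose on day 2 over day 0, up to 3.52 for Col3a1, and 1 fell, Pdgfra at -0.87, with Pdgfrb at -0.57. On day 139 over day 0, 3 rose, among them Lum (3.38) and Dcn (2.61), and 2 fell (Pdgfra, -1.49, and Pdgfrb, -1.08), and Col1a1 was the smallest over day 2 (-3.04). Their sum was 16609, 78749 and 25093, carried by 4 genes on day 2 (Col1a1, Col1a2, Col3a1 and Acta2). The part of these shifts in the receptor values was not tested.

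Red pulp macrophage markers, 12 of 12 detected, gave a median of 0.05 for day 2 and -0.01 for day 139 over day 0, the latter 0.37 with spike-in scaling, with summed signals of 118395, 97043 and 98684. Within this list Vsig4, a complement receptor of resident macrophages, had signals of 145, 1775 and 341 on days 0, 2 and 139, and Hmox1, the heme-degrading enzyme, had 35150, 11015 and 16617. Of 14 endothelial markers, all detected, 2 rose and 1 fell on day 139 over day 0 (median -0.20, or 0.17 with spike-in scaling), with sums of 30487, 29609 and 26348, beside the values of Stab1 and Stab2. Clec4g, a lectin of sinusoidal endothelium, rose against both earlier days (1.73 and 1.22), Tek was the smallest over day 0 on both later days (-0.65 and -0.95), and Lyve1 was the largest on day 2 over day 0 (1.51) and the smallest on day 139 over day 2 (-0.71). Every marker of these lists that the array carries was detected, and 1 monocyte marker, Ly6c2, has no probe on it. Their part in the receptor values was not tested.

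The 250 bases before the start site are shown for the 4 members in the promoter table that passed a limit on day 139 over day 0, and each holds a match to an element read by myeloid transcription factors. Sequences are RefSeq's on GRCm38.p6, a later build than that of the probes, and 8 of the 10 members were matched. The elements GAGGAA for PU.1, the ETS-IRF composite and TGANTCA for AP-1 were searched on both strands, and were chosen after the sequences had been seen. The PU.1 and composite elements overlap in the letters GGAA. Capitals mark the match, and each stretch is written 5′ to 3′ and ends at the base before the start site.
Marco (chr1:120505025-120505274, minus strand): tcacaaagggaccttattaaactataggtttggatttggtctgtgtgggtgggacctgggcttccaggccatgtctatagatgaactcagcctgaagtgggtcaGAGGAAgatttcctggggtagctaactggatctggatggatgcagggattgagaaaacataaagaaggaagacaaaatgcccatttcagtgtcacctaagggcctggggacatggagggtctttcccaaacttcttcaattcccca
Mrc1 (chr2:14229164-14229413, plus strand): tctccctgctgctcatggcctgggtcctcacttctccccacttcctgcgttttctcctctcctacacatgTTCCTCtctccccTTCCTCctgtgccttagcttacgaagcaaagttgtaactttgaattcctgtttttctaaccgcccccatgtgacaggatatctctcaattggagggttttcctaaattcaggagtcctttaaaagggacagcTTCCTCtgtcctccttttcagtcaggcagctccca
Stab1 (chr14:31168642-31168891, minus strand): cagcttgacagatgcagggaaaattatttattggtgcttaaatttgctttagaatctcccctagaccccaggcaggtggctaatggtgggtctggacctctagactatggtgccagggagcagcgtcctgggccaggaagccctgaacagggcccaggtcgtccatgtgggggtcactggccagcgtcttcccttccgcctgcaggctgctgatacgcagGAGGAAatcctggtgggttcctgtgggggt
Timd4 (chr11:46810549-46810798, plus strand): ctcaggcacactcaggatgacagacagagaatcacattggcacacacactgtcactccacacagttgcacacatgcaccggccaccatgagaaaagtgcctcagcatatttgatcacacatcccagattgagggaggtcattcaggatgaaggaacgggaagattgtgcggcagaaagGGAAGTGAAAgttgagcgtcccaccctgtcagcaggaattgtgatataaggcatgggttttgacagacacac

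The GAGGAA match begins 146 bases before the start in Marco and 30 bases before it in Stab1, Mrc1 holds its complement at 180, 167 and 35 bases, and the composite match begins 72 bases before it in Timd4. GAGGAA or its complement stands in 5 of the 8 members and in 23.3% of 32851 promoters of the same length, the composite in 2 of 8 and in 2.3%, and TGANTCA in 0 of 8 and in 6.75%. Because the elements were chosen after the member sequences had been seen, no enrichment is read from these shares. Cd5l and Axl are the other members with GAGGAA or its complement, and Stab2 the other with the composite. The element thus stands both before members that fell by day 139 (Marco, Stab1 and Mrc1) and before members inside the limits (Cd5l and Axl). A match of this length is a description of letters and does not show that a factor binds there.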

How the data were processed

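The authors deposited the scanner output of 3 one-color arrays, 1 per day, all on 1 slide and with 1 scan date. It holds linear intensity values that Feature Extraction had background-subtracted within each array. Per the file headers the software was version 10.7.1.1, while the submitters' processing notes name 9.5.1.1. The authors also deposited a table of quantile-normalized intensity values, which differ from the member signals used here by at most 0.0812%.

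Control and outlier spots were dropped, spots of a probe averaged, and 55679 probes quantile normalized. Values under 1 were set to 1 before log2. A probe well above background on at least 1 array was detected (32108 probes). Well above background were 30291 probes on day 0, 29982 on day 2 and 28088 on day 139, and 3 arrays limit the precision. Replicate spots had a median SD of 0.18 to 0.21 (log2) at signals of 15 to 80 and of 0.05 to 0.06 at 500 and above. A bound uses the higher of the dim probe's signal and the lowest signal well above background on that array, and leaves out spot error.

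Members, gene lists and settings were chosen with earlier results of these arrays known. The genes named are all members with every probe, for each list the largest and smallest ratio among genes well above background on both arrays and the genes past the limits on day 139 over both other days, and the 3 genes nearest in pattern to each member spanning 1.5-fold. Others, such as further Cd209 genes, Nr1h3, Ltf, Ngp, Pdgfrb, S100a8 and S100a9, were named after their values were seen. Alternatives were 75th percentile or spike-in scaling, normexp with an offset of 50 (limma 3.58.1, R 4.3.3), the deposited values, another floor, 2 other detection filters, outlier spots kept, the median over a gene's probes, limits of 2 and 0.5, and the Z-score. Calculations used Python 3.11.15, numpy 2.4.6 and pandas 2.3.3, and the ratio calls were tested on simulated data. No p-value was computed. One gene that the naming rule gives is not reported here.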

Additional observations from a re-analysis of the deposited data

How the results depend on the processing

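With 1 array per day no spread between mice is known, and all 3 arrays share 1 slide. No paired analysis was possible because each group has 1 array. Of 259 member ratios recomputed under the alternatives, 233 moved by less than the spot error and 26 by more, and 0 turned a called value around. The spot error serves there as a yardstick set by the software, so this split does not measure noise. Many of the 233 repeat the main value by construction, since the floor, the detection filters and outlier spots hardly touch bright probes. With spike-in scaling every day 139 ratio but that of Cd209b moved by more than the spot error. Of 351 list medians, 31 moved by more than 0.2 on the log2 scale. The number of members past the limits for day 2 over day 0 went from 4 to 2 with normexp (Cd5l upward, Mrc1 downward), to 1 with limits of 2 and 0.5 and to 1 with the Z-score (Cd209b both times, at its measured signal below background; its bound of 1.89-fold passes neither), and to 5 with spike-in scaling, where Msr1 joins at -0.62. For day 139 over day 0 it went from 5 to 3 with limits of 2 and 0.5 (Timd4, Marco and Msr1) and to 2 with the Z-score (Marco and Msr1), and to 6 with normexp, where Cd5l joins. For day 139 over day 2 it lay between 3 and 5 under every alternative run. The 5 includes Cd209b, which enters only without a detection filter and was not well above background on either day. Normexp also lowered the share of all probes past the limits, from 20.3% to 6.56%, from 26.9% to 11.4% and from 26% to 10.6% in the 3 comparisons. The share of all probes past limits of 2 and 0.5 is not given here, so nothing is read from the counts at those limits. With probes well above background on all 3 arrays only, Cd209b drops out, and the marginal zone median for day 2 over day 0 becomes 0.11. With the median over a gene's probes, the other 7 members have a median of -0.50 for day 139 over day 0 and -0.09 for day 2 over day 0. Apart from the construction of each alternative, the cause of these shifts was not tested. Dim signals are the least precise, which touches Cd209b first.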

Other observations

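For each receptor that was well above background on all arrays and whose 3 signals span at least 1.5-fold, the RefSeq-named genes nearest in pattern were sought among 14177 detected genes, by the root mean square difference of log2 signals centered on their mean over the 3 arrays. With 3 points per gene such likeness is common, and no shared function is read from it. A fixed radius of 0.1 tends to hold fewer genes the wider a member's signals span, so the counts are not a measure of rarity. Msr1, with the widest span of these receptors (5.66-fold), had the fewest. Only 2 genes lay within 0.1 of it, Ms4a8a (signals of 509, 360 and 96.6 on days 0, 2 and 139) and Prl2c1 (143, 102 and 25.0), and the third nearest was the basement membrane collagen gene Col4a1 (2549, 2043 and 603), at 0.173. Ms4a8a belongs to a family of membrane-spanning proteins known in macrophages.

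Marco and Timd4 each had 53 genes within 0.1. The nearest to Marco were Cd300lb (133, 98.3 and 54.0), Kcnj13 and Bik, and the nearest to Timd4 were Cd300e (699, 675 and 1652), Fmo1 and Tspan10. Cd300lb and Cd300e are activating receptors of the same myeloid family and went in opposite directions by day 139. Stab1 had 102 such genes, the nearest being Prc1 (5000, 6513 and 2826), Polq and Hist1h3g, which act in cell division, DNA repair and chromatin. Mrc1 had 229, led by Slc22a6, Prosc and Sox7, Cd5l had 347, led by Ctsw, Gnao1 and Rassf4, and Siglec1 had 357, led by Gm14635, Slc25a10 and Cmas.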
